A study of Mus musculus with 19 samples.

Results

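The 10 genes described here mark the classes of inhibitory interneurons in the mouse hippocampus: the neuropeptide genes Cort, Sst, Npy, Vip, Cck and Crh, the calcium-binding protein genes Pvalb and Calb2, the extracellular matrix gene Reln and the transcription factor gene Lhx6. They were taken by name from the 35842 genes of the deposited count table. Cort was put among them because its lower call in APP/PS1 A2A mice, set against A2A mice, was already known. Its values in that comparison, with its calls and adjusted p, are therefore a description and carry no test here. All 10 passed the filter on low counts that left 18529 genes for testing, so no member was lost to it.

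RNA was sequenced from the hippocampus of 1 hemisphere of 19 female mice at 6 months of age, 1 library per mouse. The 4 groups were WT (n = 5), A2A (n = 5), APP/PS1 (n = 5) and APP/PS1 A2A (n = 4). A2A mice are heterozygous for a TRE-A2A transgene, a Tet-responsive element driving a mouse adenosine A2A receptor cDNA. APP/PS1 mice are heterozygous for the APPswe and PS1dE9 transgenes of familial Alzheimer's disease, and APP/PS1 A2A mice carry both modifications. Every mouse, WT and APP/PS1 included, had received bilateral injections of AAV2/5-CBA-tTA into the dorsal CA1 field at 3 months. The vector supplies the transactivator from a ubiquitous chicken beta-actin promoter, and only mice with the TRE-A2A transgene can respond to it. Mice are numbered within their group as names only. Fewer interneurons of a class and less RNA per interneuron cannot be told apart in such tissue RNA, and differences between mice include whatever tissue was dissected.

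The libraries held from 21305902 to 53717373 counts. Adora2a, the endogenous A2A receptor gene, was at 1.09 to 1.54 CPM (counts scaled to a common library size) in WT and 1.15 to 1.83 in APP/PS1, against 0.865 to 9.35 in A2A and 1.27 to 10.3 in APP/PS1 A2A. The medians were 1.42 in WT, 1.57 in APP/PS1, 2.18 in A2A and 1.74 in APP/PS1 A2A, and the ranges overlapped. By qPCR the paper found a similar level of the endogenous mRNA in every group. The transgene carries a recoded cDNA, so this gene's count checks the labels only in part. Markers of CA1, CA3 and dentate neurons were present in every library, the summed level of the 6 CA1 genes being between 406.7 and 854.5 CPM. Choroid plexus genes summed to between 65.9 and 10450 CPM and varied within every group.

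Interneurons release GABA onto other neurons, and each class inhibits a different part of its target cells. Somatostatin cells contact the dendrites of pyramidal neurons, whereas parvalbumin and cholecystokinin cells form baskets around the cell body. Vip and calretinin cells mostly inhibit other interneurons, and neuropeptide Y is made by neurogliaform and ivy cells and by part of the somatostatin cells. Cortistatin, the product of Cort, is a close relative of somatostatin, is made by interneurons of the cortex and hippocampus, and binds the same receptors. Cck, Calb2 and Reln are less exclusive, since pyramidal neurons contain Cck mRNA, mossy cells of the dentate hilus contain calretinin and Cajal-Retzius cells make both calretinin and reelin.

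Cort and Sst belong to different chromosomes, and their relation is visible in the last coding bases of the 2 transcripts, which are shown because the results turn on this pair and on whether reads could be shared between them. Each sequence is 42 coding bases that end in the codon before the stop, read 5′ to 3′ from GENCODE M21 transcripts of GRCm38 (mm10), and capitals mark the bases that are identical once the frames are shifted by 3 bases.
Cort, chr4:149125267-149125308, minus strand: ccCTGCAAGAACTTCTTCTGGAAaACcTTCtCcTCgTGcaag
Sst, chr16:23889732-23889773, minus strand: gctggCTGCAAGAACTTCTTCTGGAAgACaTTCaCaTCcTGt
In this alignment 31 of 39 aligned bases were identical. The longest stretch shared anywhere between the Cort transcript (677 bases) and the Sst transcript (721 bases) was 21 bases, shorter than the reads.

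The promoters of the members were searched for the core of the cAMP response element, since Sst is the textbook example of a gene with this element. The letters TGACG, on either strand, were sought in the promoter window (from upstream of the gene start to just past it). They occurred in the window of 4 of the 8 members that had a RefSeq entry (GRCm38.p6), namely Cort, Sst, Vip and Cck. They also occurred in 20.8% of all 32851 promoters. That share counts promoters, whereas a member counted if any of its promoters matched. The complete palindrome TGACGTCA, which contains TGACG on both strands, occurred in 1 of the 8, that of Sst, and in 1.79% of all promoters. Calb2 and Crh were not searched. The windows of 30 bases around the match are given on the strand of the gene, with the match in capitals, and are shown because they belong to the 3 genes that separated the groups and to Vip.
Cort, chr4:149126764-149126793: ctccggcttgtgCGTCAccgcgtgagtgtg
Sst, chr16:23890874-23890903: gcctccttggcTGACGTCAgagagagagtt
Vip, chr10:5639127-5639156: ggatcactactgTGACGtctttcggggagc
Cck, chr9:121495724-121495753: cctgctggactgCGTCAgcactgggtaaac
The match began 18 bases before the RefSeq start of the gene in Cort, 48 in Sst, 79 in Vip and 47 in Cck. The span that the files give for Sst begins further upstream and includes its window. A match in these letters is a description and no measurement of binding.

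In WT hippocampus the 10 genes covered a wide range of levels per transcript length. The length is the median over the annotated transcripts of a gene, 2555 bases for Reln. The order of the genes depends on that median, and other lengths were not tried. Sst was highest at 194 ± 46.7 CPM per kilobase (SD, n = 5), followed by Cck at 123 ± 13.8, and the mice of these 2 genes overlapped. Npy came next at 53.3 ± 5.73 CPM per kilobase and overlapped neither neighbour. Reln (34.1 ± 5.29), Calb2 (30.9 ± 5.74) and Pvalb (29.3 ± 5.35) could not be ordered beyond the spread of the mice. Cort (7.97 ± 1.93) overlapped both Vip (11.4 ± 3.93) and Lhx6 (5.78 ± 0.70), whereas Vip and Lhx6 did not overlap. Crh, the gene of corticotropin-releasing hormone, was lowest at 0.553 ± 0.226 CPM per kilobase, resting on 14 to 38 counts per WT mouse.

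**Figure D1:**
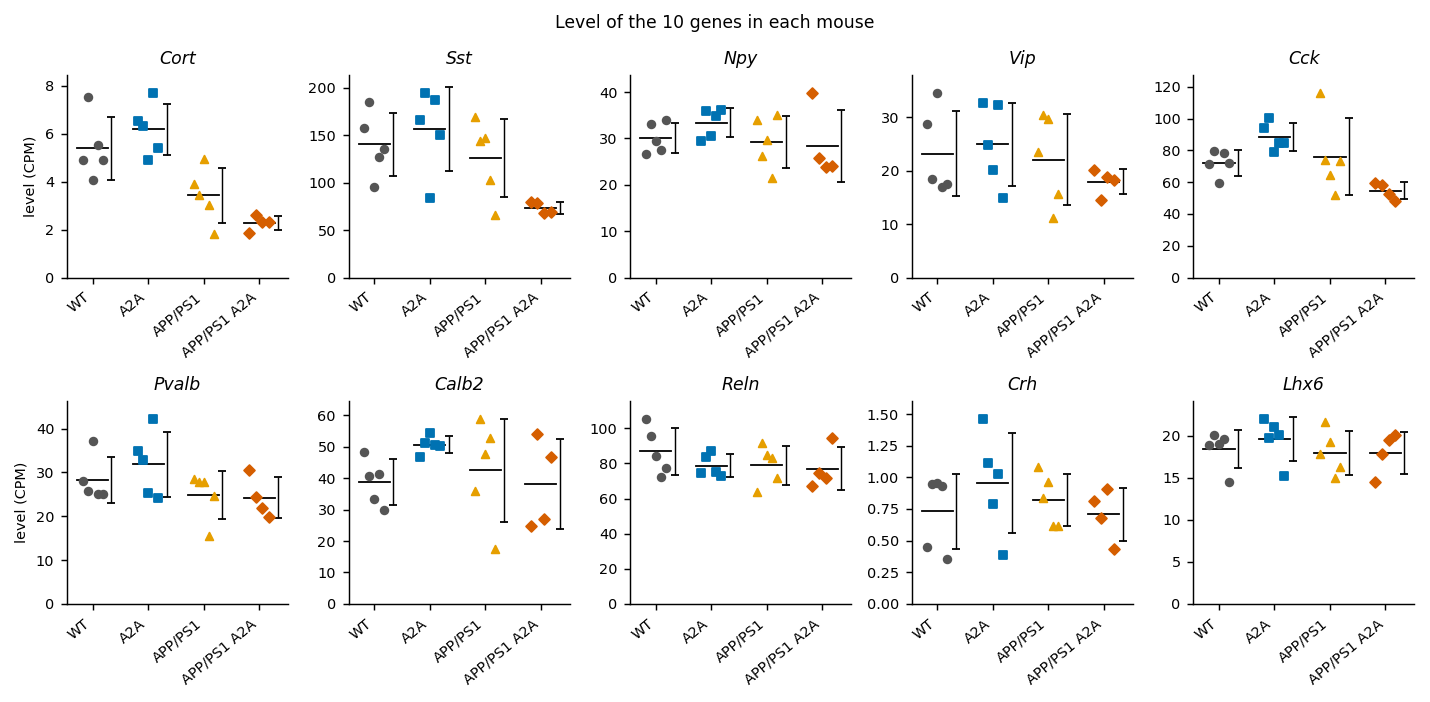
Level in CPM (vertical axis, starting at 0) of each of the 10 genes in every mouse, by group; the horizontal line is the group mean and the bar beside it 1 SD (n = 5, or 4 for APP/PS1 A2A). The 4 APP/PS1 A2A mice lie below all 5 A2A mice for Cort, Sst and Cck and the ranges of the 2 groups overlap for the other 7 genes.

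Cort had its lowest mean levels in the 2 groups that carried the APP/PS1 transgenes. The gene lies at chr4:149125034-149126763 of mm10 and was at 4.93, 7.54, 4.07, 5.54 and 4.89 CPM in WT mice 1 to 5. A2A mice 1 to 5 had 6.52, 6.33, 4.91, 7.70 and 5.43 CPM. APP/PS1 mice 1 to 5 had 3.92, 3.43, 4.93, 3.04 and 1.82 CPM. The 4 APP/PS1 A2A mice had 1.87, 2.60, 2.31 and 2.30 CPM, from 69 to 138 counts. All 4 lay below every A2A and every WT mouse and within the range of the APP/PS1 mice.

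The fitted log2 fold change of Cort in APP/PS1 A2A versus A2A was -1.44 ± 0.23 (SE), or 0.369 times the A2A level, and is given as the value by which the gene was chosen. In APP/PS1 versus WT, which shares no mouse with that comparison, Cort was -0.66 ± 0.21 on the log2 scale (95% interval -1.11 to -0.21). The p adjusted over all genes by edgeR's quasi-likelihood test was 0.9998, so it was not called, and the 2 groups overlapped through APP/PS1 mouse 3. A2A versus WT gave 0.19 ± 0.21. The APP/PS1 A2A mice were also lower than the APP/PS1 mice, with a log2 fold change of -0.59 ± 0.23 (95% interval -1.07 to -0.10) and an adjusted p of 0.9999.

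Sst, the gene of somatostatin, lies at chr16:23889573-23890958. It was at 157.9, 185.2, 95.5, 127.1 and 135.1 CPM in WT mice 1 to 5. A2A mice 1 to 5 had 166.0, 194.4, 84.0, 186.9 and 149.8 CPM. APP/PS1 mice 1 to 5 had 169.1, 144.0, 146.6, 102.4 and 65.8 CPM. The 4 APP/PS1 A2A mice had 79.1, 78.8, 67.6 and 68.7 CPM, close together and below all A2A and WT mice, while APP/PS1 mouse 5 was lower still.

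The log2 fold change of Sst in APP/PS1 A2A versus A2A was -1.09 ± 0.26 (SE; 95% interval -1.62 to -0.55), or 0.471 times. Its adjusted p over the 18529 genes was 0.138 with edgeR, so it was not called. The call depended on the method. DESeq2 gave an adjusted p of 0.00720, limma-voom with sample weights 0.0186, and the edgeR fit without A2A mouse 3, the A2A mouse with the lowest Sst, 0.0272 at a log2 fold change of -1.25. Over the 30 alternatives the adjusted p ran from 0.00720 to 0.526 and the log2 fold change from -1.25 to -0.85. In APP/PS1 versus WT Sst was -0.16 ± 0.23, and in A2A versus WT it was 0.16 ± 0.23, both with intervals across 0.

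Cck, the gene of cholecystokinin, lies at chr9:121489824-121495694. WT mice 1 to 5 had 71.7, 79.8, 59.3, 78.3 and 71.9 CPM. A2A mice 1 to 5 had 94.0, 100.2, 79.2, 84.4 and 84.4 CPM. APP/PS1 mice 1 to 5 had 116.1, 74.2, 64.2, 52.0 and 73.3 CPM. The 4 APP/PS1 A2A mice had 59.7, 58.3, 52.6 and 48.4 CPM. They lay below all A2A mice, but 1 of them passed the lowest WT mouse.

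The log2 fold change of Cck in APP/PS1 A2A versus A2A was -0.69 ± 0.16 (SE; 95% interval -1.03 to -0.35), or 0.619 times, with an adjusted p of 0.138 in edgeR. It too was not called. The adjusted p was 0.0137 with DESeq2, 0.0145 with limma-voom with sample weights and 0.0240 where only the compared groups were fitted. It was 0.0129 without APP/PS1 mouse 1, which is in neither group, enters through the shared estimate of the spread and had the highest Cck of all mice. In APP/PS1 versus WT Cck was 0.07 ± 0.15, and in A2A versus WT 0.29 ± 0.15, both with intervals that include 0.

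Over the 10 genes, edgeR called 1 in APP/PS1 A2A versus A2A, Cort, which was chosen for that call. The background was 12 called genes of 18529 (0.0648%), of which 1 (0.0054%) was lower. The call of Cort was lost when 1 of 3 APP/PS1 A2A mice was left out: without mouse 1, 3 or 4 its adjusted p was 0.104, 0.0697 and 0.0870, with log2 fold changes of -1.35, -1.44 and -1.44. Of the other 9 members, which leave out the gene chosen on this comparison, 2 (Sst and Cck) passed an unadjusted threshold of 0.05 as lower and 0 as higher, against 5.39% and 2.31% of all genes. The mice of the groups did not overlap for these 2 genes, where 1.82% of all genes were lower without overlap. The median log2 fold change of the 9 was -0.41, all 9 being negative where 49.1% of all genes were, and that of all tested genes was 0.0030. The 9 were also chosen with earlier results of these data known. Members varied together over mice, so the 9 signs are not independent, and these counts are descriptions. DESeq2 and limma-voom with sample weights each called 3 members, Cort, Sst and Cck, but called 159 and 272 genes in all, of which 110 and 221 were lower. Without A2A mouse 3, edgeR called 93 genes, of which 79 were lower.

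In the other comparisons edgeR called no member. APP/PS1 versus WT had 10 called genes (0.054%), and A2A versus WT and APP/PS1 A2A versus APP/PS1 had 0 (0%). At an unadjusted p under 0.05, 1 member, Cort, was past the threshold in APP/PS1 versus WT (2.26% of all genes), against 0 in A2A versus WT (3.44%). When APP/PS1 A2A was set against APP/PS1 (2.87%) there were 2 besides Cort, namely Sst (-0.77 ± 0.25, 95% interval -1.30 to -0.24) and Cck (-0.47 ± 0.16, 95% interval -0.81 to -0.13), with adjusted p of 0.9999. The value of Cort there shares the APP/PS1 A2A mice on which the gene was chosen. DESeq2 and limma-voom likewise called no member in these comparisons. For APP/PS1 versus WT the median log2 fold change of the members was -0.06, with 7 negative and 3 positive. For A2A versus WT it was 0.17, with 9 positive and 1 negative. For APP/PS1 A2A versus APP/PS1 it was -0.18, or -0.15 without Cort, with 9 negative and 1 positive. The medians of all tested genes were 0.0039, 0.00098 and -0.0062 in the same order.

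Whether the effect of the APP/PS1 genotype differed between mice with and without the A2A transgene was tested as a contrast of its own. It was -0.93 ± 0.34 for Sst and -0.76 ± 0.22 for Cck on the log2 scale. Both had an unadjusted p under 0.05, as 3.8% of all genes had, and an adjusted p of 0.9998 in edgeR, and 0 genes (0%) were called. The contrast contains the difference by which Cort was chosen, so its value for Cort, -0.78 ± 0.31, is a description. A difference between the 2 genetic backgrounds is therefore not shown for any member. This contrast, APP/PS1 A2A versus A2A and APP/PS1 A2A versus APP/PS1 all use the same 4 APP/PS1 A2A mice.

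**Figure D2:**
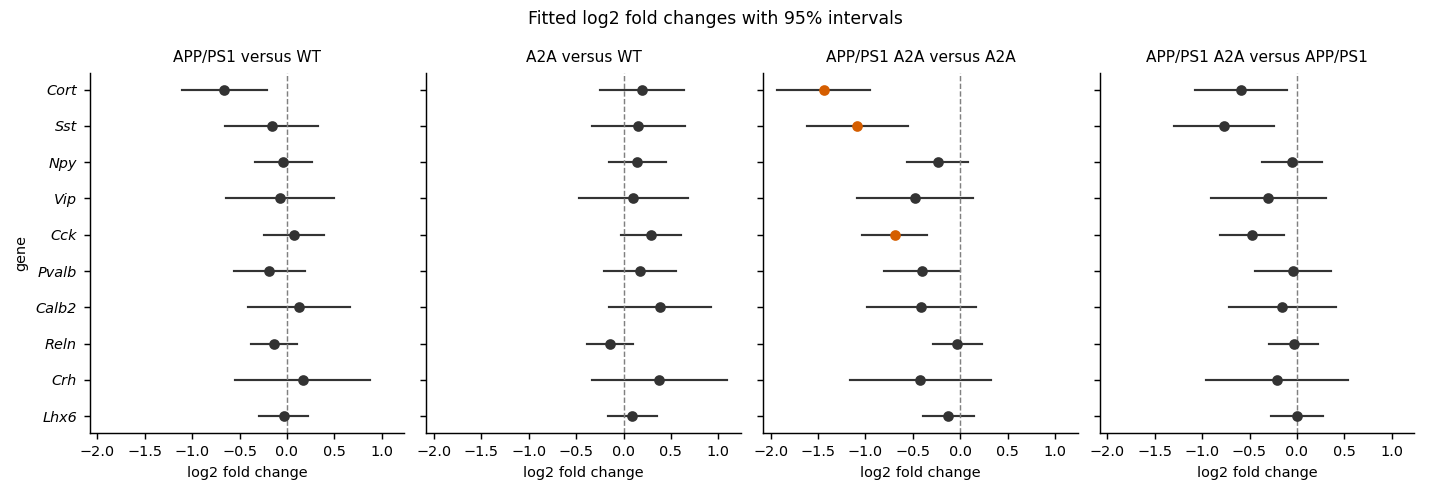
Fitted log2 fold change (horizontal axis) of each gene in 4 comparisons, with its 95% interval from the edgeR fit; orange points are genes whose mice do not overlap between the groups. In APP/PS1 A2A versus A2A the points of Cort, Sst and Cck lie at -1.44, -1.09 and -0.69, and the intervals of the other 7 genes reach 0.

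The remaining neuropeptide genes gave smaller values in APP/PS1 A2A versus A2A. Npy (chr6:49822710-49829507) was at 23.8 to 25.7 CPM in APP/PS1 A2A mice 2 to 4, below all A2A mice (29.5 to 36.1 CPM), and at 39.8 in mouse 1, above all of them, and its log2 fold change was -0.24 ± 0.15 (95% interval -0.56 to 0.08). Vip (chr10:5639218-5647617) was at 14.6 to 20.1 CPM in APP/PS1 A2A and 14.9 to 32.7 in A2A, with -0.48 ± 0.29. Vip varied as much within the other groups, from 17.0 to 34.6 CPM in WT and 11.2 to 30.4 in APP/PS1. Crh (chr3:19693401-19695396) was at 0.430 to 0.907 CPM in APP/PS1 A2A and 0.388 to 1.46 in A2A, with -0.42 ± 0.36 (95% interval -1.17 to 0.33). These values of Crh rest on 13 to 47 counts per mouse.

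Of the genes that encode no peptide hormone, Pvalb (chr15:78191114-78206400) had the largest change relative to its error. It was at 19.9 to 30.6 CPM in APP/PS1 A2A and 24.1 to 42.2 in A2A, with -0.40 ± 0.19 (95% interval -0.80 to 0.0026) and an adjusted p of 0.653 in edgeR. Calb2 (chr8:110137502-110168210), the gene of calretinin, was at 24.9 to 54.0 CPM in APP/PS1 A2A against a narrow 46.7 to 54.5 in A2A, with -0.41 ± 0.27. Reln (chr5:21884454-22344702) was at 67.1 to 94.6 CPM in APP/PS1 A2A and 72.8 to 87.3 in A2A, with -0.03 ± 0.12 (95% interval -0.29 to 0.23). Lhx6 (chr2:36081953-36105408), which is needed for the development of somatostatin and parvalbumin cells and is still expressed by them in the adult, was at 14.5 to 20.1 CPM and 15.3 to 21.98, with -0.13 ± 0.13 (95% interval -0.40 to 0.15). The 2 genes with the narrowest intervals were thus those with the values nearest to 0, and neither interval reached the fitted change of Sst or Cort.

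Since some interneurons make both peptides, Cort was also set against Sst within each library. There were 3.26 to 5.85 Cort counts per 100 Sst counts in A2A, 3.12 to 4.36 in WT, 2.32 to 3.36 in APP/PS1 and 2.36 to 3.42 in APP/PS1 A2A. The medians were 3.93, 4.07, 2.77 and 3.33. The highest value, 5.85, was that of A2A mouse 3, the A2A mouse with the lowest Sst. The ranges of all 4 groups overlapped, and since the ratio uses the gene chosen for its difference it is given without a test.

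Some pairs of members varied together across the 19 mice. Cort and Sst had Pearson's r = 0.86 and Spearman's rho = 0.84 over log2 CPM, each with p = 2e-05 by 100000 permutations (two-sided) and adjusted p of 0.00045 and 0.0009 over the 45 pairs of members. The value was 0.82 without the 2 mice farthest from the median of Cort and 0.81 with the group means taken out, so the pair also varied together within groups. Vip and Pvalb had r = 0.83 (rho = 0.85, permutation p = 1e-05, the smallest that the permutations can give, and 4e-05), 0.72 without the 2 farthest mice and 0.83 with group means taken out.

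Sst and Cck had r = 0.73 (rho = 0.76, permutation p = 0.00044 and 0.00026, adjusted 0.0066 and 0.0039), 0.77 without the 2 farthest mice and 0.51 with group means taken out. Cort and Cck had r = 0.63 (rho = 0.68, permutation p = 0.00403 and 0.00199, adjusted 0.0453 and 0.0179) and 0.71 without the 2 farthest mice, but 0.25 with group means taken out. A relation within groups was not shown at an adjusted p of 0.05 for Cort and Cck, nor for Sst and Cck. With group means taken out 2 of the 45 pairs passed an adjusted p of 0.05 in place of 4. Of the 45 pairs, 38 had a positive r, with a median of 0.36. The most negative pair was Npy and Reln at r = -0.39 (rho = -0.33), with permutation p of 0.103 and 0.164 and adjusted p of 0.201 and 0.294. With group means taken out it was Npy and Calb2, at -0.62 against -0.35 with the values as they are, and Npy and Reln were at -0.48. As Cort was chosen on 2 of these groups, the values with group means taken out are the ones free of that choice. The permutation p of its pairs with Sst and Cck over all mice contain that choice and are descriptions.

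**Figure D3:**
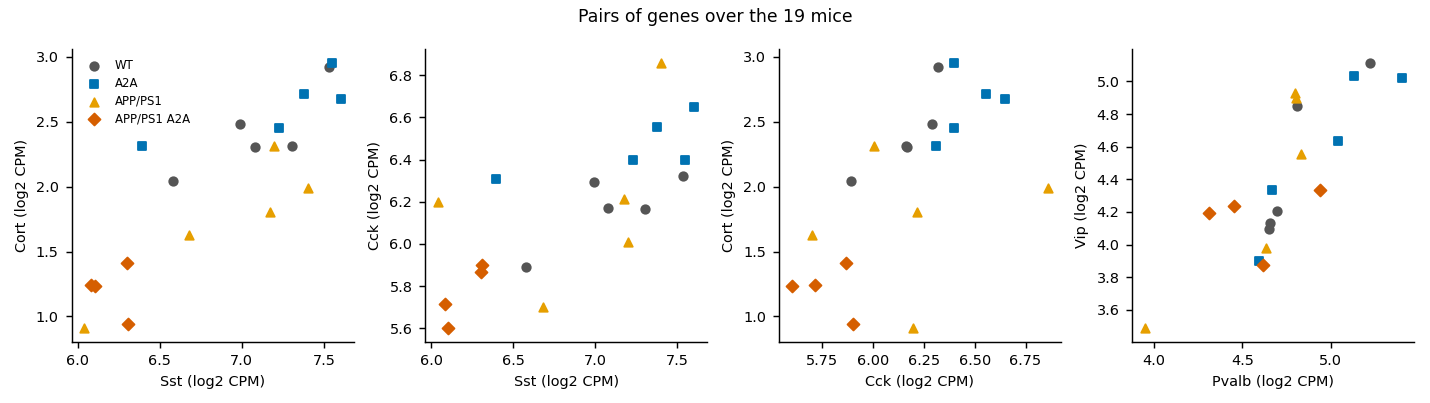
Log2 CPM of the 4 pairs of genes with an adjusted p under 0.05, each point being 1 of the 19 mice with colour and shape giving its group. Cort rises with Sst over all mice (r = 0.86) and Vip with Pvalb (r = 0.83), while Cort and Cck have r = 0.63, and 0.25 with group means taken out.

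**Figure D4:**
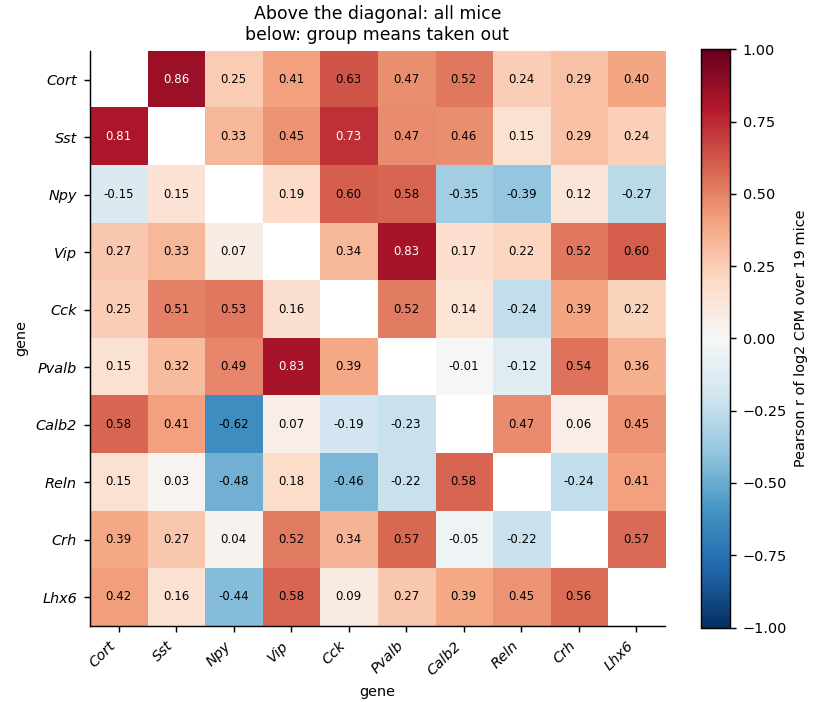
Pearson r of log2 CPM for each pair of the 10 genes over 19 mice, from -1 (blue) to 1 (red); the upper triangle uses the values as they are and the lower triangle the values with group means taken out. Cort with Sst and Vip with Pvalb stay above 0.8 in both, and Cort with Cck drops from 0.63 to 0.25.

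The genes whose pattern over the 19 mice was most like that of Cort were sought among 14933 genes with a mean of at least 1 CPM. They were Hmga1 (r = 0.87), Sst (0.86), Aurkaip1 (0.85), Ndufs7 (0.85) and Selenoh (0.84). Part of this likeness is the group difference for which Cort was chosen, and with group means taken out r was 0.87 for Ndufs7, 0.82 for Selenoh, 0.81 for Sst, 0.80 for Aurkaip1 and 0.68 for Hmga1. Those most like Sst were Apoe (r = 0.94), C1qtnf4 (0.93), Rex1bd (0.93), Plvap (0.93) and Nfkbib (0.93). With group means taken out the r of Apoe with Sst was 0.93. These likenesses are descriptions over libraries that also share their depth and dissection.

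The genes next to Cort on the chromosome were examined as well. Within 100000 bases of Cort lie Pex14, Dffa, Cenps, Pgd and Kif1b, which were tested, and the pseudogenes Gm9506 and Rpsa-ps12, which were too low for a test. Cenps, a centromere protein gene on the same strand, lies upstream of Cort, with 357 bases between the 2 annotated spans. Cenps was at 1.68 ± 0.401 CPM in APP/PS1 A2A and 2.24 ± 0.393 in A2A (SD). Its log2 fold change was -0.42 ± 0.24, with an adjusted p of 0.734 in edgeR. Pex14, a peroxisome import gene, was -0.21 ± 0.07 (adjusted p = 0.369) and passed an unadjusted p of 0.05 as lower, which the other 4 tested neighbours did not. Dffa, which ends 4386 bases from Cort, was -0.02 ± 0.06, Pgd -0.0020 ± 0.07 and Kif1b 0.15 ± 0.12. None of the 5 was called in any comparison, a difference between them and Cort was not tested, and no annotated gene overlaps Cort.

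The other genes of the same cells were read from 10 lists of interneuron and peptide genes, and edgeR called 0 of their genes in each of the 5 comparisons (0% to 0.0648% of all genes being called). The GABA list, which holds the enzymes and transporters that every interneuron uses, had 0 of 6 genes under an unadjusted p of 0.05 in APP/PS1 A2A versus A2A and a median log2 fold change of -0.10. Gad1, which makes GABA, was at 325.7 to 414.1 CPM in APP/PS1 A2A and 384.4 to 428.6 in A2A (-0.15 ± 0.10). Slc32a1, which loads GABA into vesicles, was at 31.8 to 66.4 and 47.9 to 57.8 CPM (-0.28 ± 0.20). Among the interneuron transcription factors, Satb1 (-0.58 ± 0.24) passed that unadjusted threshold as lower, and the median of this list of 17 genes was -0.06.

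Of 12 other markers of somatostatin cells, 1 (Tac1) was lower at an unadjusted p under 0.05 in APP/PS1 A2A versus A2A, 5.39% of all genes being so, and the median log2 fold change was -0.06. Tac1, the tachykinin precursor, was at 4.95 to 8.10 CPM in APP/PS1 A2A and 5.31 to 14.6 in A2A, with -0.74 ± 0.28 and an adjusted p of 0.437 in edgeR. Crhbp, which binds corticotropin-releasing hormone, was -0.33 ± 0.18 and was called by limma-voom with sample weights at an adjusted p of 0.0315 and a log2 fold change of -0.57. The summed level of the 12 genes was 315.1 to 380.0 CPM in APP/PS1 A2A, 311.6 to 380.9 in A2A, 331.8 to 397.6 in WT and 305.5 to 375.4 in APP/PS1, so all 4 groups overlapped.

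Markers of the other classes were read in the same way, against the 5.39% of all genes that were lower, and the lists were not compared with each other. In APP/PS1 A2A versus A2A, 2 of 13 parvalbumin cell genes passed the unadjusted threshold as lower, Tac1 again and Nog (-0.37 ± 0.18), with a median of -0.10. In the list of Vip and Cck cell markers 3 of 12 were, including the ion channel gene Asic4 (-0.85 ± 0.30) and the nicotinic receptor gene Chrna4 (-0.67 ± 0.27), while the median was 0.02. For neurogliaform and ivy cells 1 of 9 was, Cplx3 at -1.37 ± 0.52, followed by Lamp5 at -0.27 ± 0.14, with a median of 0.06. None of 5 tested Cajal-Retzius genes was (median 0.15), the smallest p being those of Ndnf (0.17 ± 0.14) and Ebf3 (0.55 ± 0.67). No gene of these lists was higher at that threshold.

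Of 22 receptors and binding proteins of the members' products 19 were tested. In APP/PS1 A2A versus A2A 1 passed an unadjusted p of 0.05 as lower, where 5.39% of all genes did. It was Cckbr, the main cholecystokinin receptor of the brain, at 3.88 to 6.74 CPM in APP/PS1 A2A and 8.08 to 18.7 in A2A. These 2 groups did not overlap, where 1.82% of all genes were lower without overlap. The log2 fold change of Cckbr was -1.09 ± 0.32 with an adjusted p of 0.236 in edgeR. DESeq2 called it at an adjusted p of 0.0482. The list's median was -0.10.

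Of 12 genes for the processing and storage of peptides in granules, 2 passed the unadjusted threshold, both lower, where 5.39% of all genes were lower. Pcsk1n, whose product inhibits the prohormone convertase PC1, was at 11.7 to 17.9 CPM in APP/PS1 A2A and 20.7 to 106.1 in A2A, with -2.12 ± 0.46 and an adjusted p of 0.138 in edgeR. DESeq2 called it at an adjusted p of 0.00473, limma-voom with sample weights at 0.0269 and the edgeR fit without A2A mouse 3 at 0.0265. Vgf, a granule protein gene induced by neuronal activity, was -0.58 ± 0.20. The list's median was -0.04. Of 10 immediate early genes, which report recent activity, 1 was lower at that threshold, Junb at -1.43 ± 0.42 (8.59 to 12.2 CPM in APP/PS1 A2A and 8.11 to 52.2 in A2A), while Bdnf, second by p, was 0.34 ± 0.17. The median of these genes was -0.50, the most negative of the 10 lists, and 8 of the 10 genes were negative.

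In the other comparisons fewer genes of the lists passed that threshold. In APP/PS1 versus WT they were 1 gene of the GABA list and 1 transcription factor, both lower, and 0 genes of the other 8 lists, with 2.26% of all genes past it in either direction. In A2A versus WT, 1 gene of the Vip and Cck list was higher and 0 of the other lists were past it (3.44% of all genes). In APP/PS1 A2A versus APP/PS1 there was 1 lower gene in the Vip and Cck list, 1 in the peptide processing list and 1 among the immediate early genes, where another 1 was higher (2.87% of all genes). The difference contrast had 1 lower gene in each of the Vip and Cck list, the peptide processing list and the immediate early genes, where 3.15% of all genes were lower.

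Markers of neighbouring tissue were read beside Cort, Sst and Cck. The 10 neocortex and subiculum genes were all negative in APP/PS1 A2A versus A2A, with a median of -0.67, and 5 of them passed the unadjusted threshold of 0.05 as lower (5.39% of all genes), namely Cux2, Tbr1, Ctgf, Fezf2 and Rxfp1, whereas 0 was called. They summed to 200.05 to 241.0 CPM in APP/PS1 A2A, 200.4 to 480.6 in A2A, 194.3 to 463.6 in WT and 222.8 to 476.6 in APP/PS1. None of the 10 was at 0 in any mouse. Rxfp1 was at 4.52 to 15.4 CPM in APP/PS1 A2A and 4.65 to 62.5 in A2A. Within the groups, mice that were low for the list were in part those low for Cort and Sst. A2A mouse 3, at 249.5 CPM for the list, had the lowest Cort and Sst of its group, and APP/PS1 mice 4 and 5, at 227.7 and 222.8, had the 2 lowest values of theirs for both genes. A2A mouse 5, at 200.4 CPM for the list, had 5.43 CPM of Cort and 149.8 of Sst. WT mouse 4, at 194.3 the lowest of all mice for the list, had 5.54 CPM of Cort and 127.1 of Sst. WT mouse 3, at 459.2, had the lowest Cort and Sst of its group.

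A term for the level of this list in the fit was an alternative chosen after the data were seen. The list includes Lamp5, read above as a neurogliaform and ivy cell marker, so the term is not one of neighbouring tissue alone. With the term, the log2 fold change in APP/PS1 A2A versus A2A was -1.27 ± 0.25 for Cort, -0.85 ± 0.27 for Sst and -0.70 ± 0.18 for Cck. No member was then called, the adjusted p of Cort being 0.117, of Sst 0.526 and of Cck 0.418. The value of Vip changed sign, to 0.14 ± 0.15. Offsets for the transcript length and GC content of the genes were also chosen after the data were seen. With them the values were -1.31 ± 0.21 for Cort, -1.03 ± 0.24 for Sst and -0.57 ± 0.15 for Cck. Cort remained the called member at an adjusted p of 0.0101 in edgeR, which describes the call it was chosen for.

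**Figure D5:**
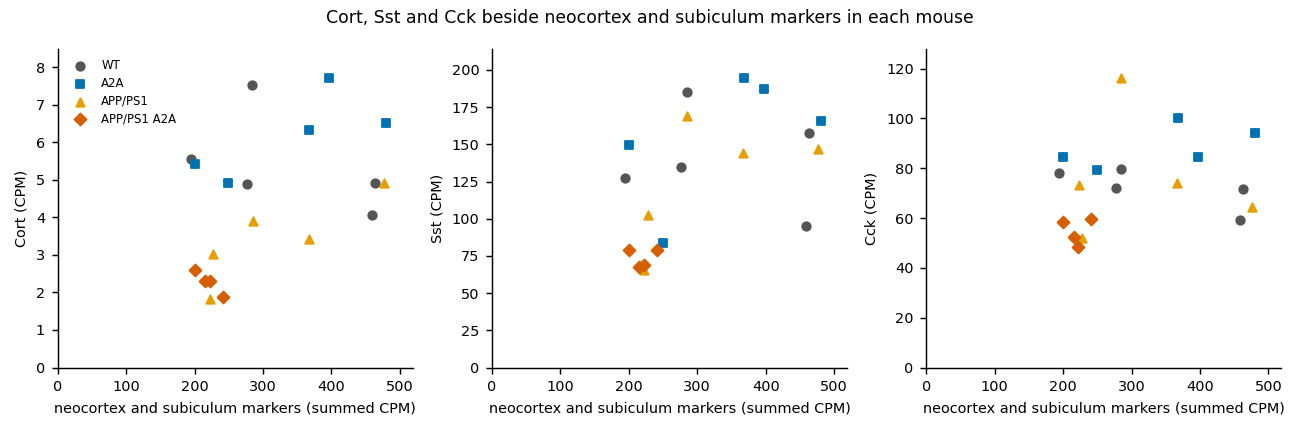
Level in CPM of Cort, Sst and Cck (vertical axes) against the summed CPM of 10 neocortex and subiculum markers (horizontal axis) in each of the 19 mice. The 4 APP/PS1 A2A mice sit between 200.05 and 241.0 on the horizontal axis. That range also holds A2A mouse 5 (200.4) and APP/PS1 mice 4 and 5 (227.7 and 222.8). WT mouse 4 lies just below it, at 194.3, and the other WT mice above it. A2A mouse 5 and WT mouse 4 have more Cort and Sst than the APP/PS1 A2A mice, and APP/PS1 mouse 5 has less.

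The other lists of cells had medians nearer to 0. In APP/PS1 A2A versus A2A the median log2 fold change was -0.33 for CA1 pyramidal genes and 0.26 for CA3 and mossy cell genes. It was -0.12 for dentate granule cells, 0.09 for striatal and -0.13 for thalamic genes. The striatal list includes Tac1 and Adora2a, and the thalamic list the member Calb2. The 10 microglial genes were all positive (median 0.24), with 601.6 to 873.5 CPM in APP/PS1 A2A and 468.3 to 650.8 in A2A. Medians were -0.07 for astrocytes, -0.14 for oligodendrocytes, 0.14 for endothelium, 0.05 for choroid plexus and -0.24 for erythroid genes, and 0 genes of these 12 lists were called. The part of other tissue and cells in the levels of the members beyond the fit above was not tested.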

How the data were processed

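Poly(A)-selected stranded libraries were sequenced by the authors as single reads, trimmed with cutadapt, cleared of ribosomal reads, aligned to mm10 with STAR 2.5.3a and counted per gene with HTSeq 0.6.1p1 against Ensembl annotation. The values are the raw counts that the authors deposited, with gene coordinates and the median transcript length of each gene beside them. The deposited fold changes and p-values, which come from DESeq2 1.16.1, were not used. Counts were normalized by TMM and the 4 group means fitted with edgeR 4.0.16 (R 4.3.3) after its filter at a minimum count of 10, and contrasts were tested with the quasi-likelihood F-test, Benjamini-Hochberg adjusted over 18529 genes. A call needed a log2 fold change beyond 0.32 in size together with an adjusted p below 0.05. CPM uses TMM library sizes, and log2 CPM a prior count of 2. No count column lacked a sample. The script was tested on simulated data.

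The members and lists were chosen with earlier results of these data known. Named are the members, any called gene of an interneuron or peptide list and the 2 of smallest p in APP/PS1 A2A versus A2A, neocortex and subiculum genes, genes within 100000 bases of Cort, and the 5 genes most like Cort and Sst. Alternatives were RLE and upper-quartile factors, DESeq2 1.42.0, limma-voom (limma 3.58.1) with and without sample weights, other filters, the compared groups alone, 1 surrogate variable (sva 3.50.0) and leaving out each mouse. Mice of a group were separate animals. Promoter sequences are from RefSeq. Results of 1 listed gene are not reported here.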

Additional observations from a re-analysis of the deposited data

Results flagged for a closer look

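In 40 sets of a member in a group, 4 held a mouse far from the others, where chance alone gives about 1 in 20. Npy was at 39.81 CPM in APP/PS1 A2A mouse 1, the others being at 23.8 to 25.7. Pvalb was at 37.26 CPM in WT mouse 3, against 25.1 to 28.0 in the other WT mice. It was at 15.42 CPM in APP/PS1 mouse 4, against 24.7 to 28.4. Lhx6 was at 14.55 CPM in WT mouse 5, against 18.9 to 20.2. The 4 values came from 4 different mice, and none of them involved Cort, Sst or Cck. What set these mice apart was not tested.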

How the results depend on the processing

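The count of members called in APP/PS1 A2A versus A2A was 1 and became 3 with DESeq2 and with limma-voom with sample weights, 2 with only the compared groups, and 0 with a term for neocortex and subiculum markers. It ran from 0 to 2 when each mouse was left out. The count covers Cort, which was chosen for its call there, and is a description. All genes called there numbered 12, but 159 with DESeq2, 272 with limma-voom with sample weights, 6 with at least 10 counts in every mouse, 28 with 1 surrogate variable and 10 to 93 without each mouse, the 93 without A2A mouse 3. Of these, 1 was lower, against 110 with DESeq2, 221 with limma-voom with sample weights, 2 with only the compared groups, 0 with the term for neocortex and subiculum markers and 0 to 79 without each mouse. No member was called in the other comparisons under any alternative. Pairs with an adjusted p under 0.05 numbered 4, and 2 with group means taken out and 3 to 10 without each mouse. Of the 4, only Cort and Cck no longer passed when some single mice were left out, including each A2A mouse in turn. Its r then ran from 0.58 to 0.74 over all left-out mice. The causes were not tested.

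Some values changed sign, and not all of them were near 0 in the main fit. Vip there was -0.48 in APP/PS1 A2A versus A2A and -0.30 in APP/PS1 A2A versus APP/PS1. It was -0.40 in the difference of the APP/PS1 effect, and Ebf3 was 0.55 in APP/PS1 A2A versus A2A. With limma-voom with sample weights Lhx6 was 0.0015 in APP/PS1 versus WT, Reln 0.016 in APP/PS1 A2A versus A2A, and Calb2 0.015 and Reln 0.037 in APP/PS1 A2A versus APP/PS1. With 1 surrogate variable Vip was -0.014 in A2A versus WT and Lhx6 -1.6e-05 in APP/PS1 A2A versus APP/PS1. With the term for neocortex and subiculum markers Vip was 0.00072 in APP/PS1 versus WT. In APP/PS1 A2A versus A2A that term gave Vip 0.14, Reln 0.051 and Ebf3 -0.17, and in APP/PS1 A2A versus APP/PS1 Vip 0.19, Pvalb 0.18, Reln 0.030 and Crh 0.033. In the difference of the APP/PS1 effect with and without A2A it gave Vip 0.14, Pvalb 0.045 and Lhx6 0.017.

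Leaving out each mouse in turn, APP/PS1 versus WT ran from -0.30 to 0.0033 for Sst, -0.11 to 0.053 for Npy, -0.22 to 0.11 for Vip, -0.14 to 0.18 for Cck, -0.015 to 0.33 for Calb2, -0.011 to 0.29 for Crh and -0.11 to 0.025 for Lhx6. A2A versus WT ran from -0.011 to 0.29 for Vip. APP/PS1 A2A versus A2A ran from -0.13 to 0.038 for Reln and -0.39 to 1.23 for Ebf3. APP/PS1 A2A versus APP/PS1 ran from -0.26 to 0.028 for Npy, -0.17 to 0.049 for Pvalb, -0.37 to 0.0061 for Calb2, -0.14 to 0.028 for Reln and -0.059 to 0.091 for Lhx6, and the difference of the APP/PS1 effect ran from -0.17 to 0.0052 for Lhx6. Cort ran from -1.51 to -1.34, Sst from -1.25 to -0.995 and Cck from -0.73 to -0.63 in APP/PS1 A2A versus A2A. No paired analysis was possible because the labels give no replicate numbers that mice of different groups share. Crh had the fewest counts, and intervals reflect 4 or 5 mice per group.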
